A study of Rattus norvegicus with 9 samples.

Results

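A set of 7 genes of cartilage and tendon matrix that are also used as labels of the scar were described here in the left ventricle of the rat after myocardial infarction (MI): Sox9, Acan, Comp, Chad, Cilp, Cilp2 and Mgp. They were chosen by name, as the rows of the deposited expression table that carry one of these 7 gene names, and all 7 members were present among the 35843 genes of the table. The study ligated the left anterior descending coronary artery of adult male Sprague-Dawley (SD) rats permanently. Heart RNA of 3 biological replicates of each of 3 groups was sequenced at day 28. Each sample title names a pair of items whose meaning is not stated, and each sample was taken as 1 rat. Group Sham had the chest operation without the ligation and was given saline by gavage every day. Group MI had the ligation and the same saline. Group MI + DAPA (1st d), below group DAPA, had the ligation and dapagliflozin (DAPA), an inhibitor of the kidney glucose transporter SGLT2, at 1 mg/kg by gavage every day from the first day on. The design names the left ventricle as the source, whereas the methods on tissue sampling say that molecular work mainly used the border of the infarct, with the scar cut away, and the account of the RNA-seq speaks of infarct myocardium. How much scar each RNA sample held was therefore not known.

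Fibroblasts of a healing infarct first become contractile, collagen-secreting myofibroblasts. Once the scar has matured, many are known to pass into a quieter state, the matrifibrocyte, which makes proteins otherwise typical of cartilage and tendon. Cartilage itself is built by cells in which the transcription factor Sox9 drives a network of type II collagen, the large proteoglycan aggrecan and smaller bridging proteins.

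The recovered depth was 13597239 to 17210909 reads per rat. In group Sham only 5702454 to 6570698 reads lay outside the mitochondrial genome, against 12635945 to 13171891 reads in group MI and 11440726 to 12082280 reads in group DAPA, so low genes were measured least well in group Sham. Values are FPKM, fragments divided by transcript length and by a number for each library, so levels of different genes can be set side by side. That library divisor did not follow total reads. It was 1.8464-fold higher in MI rat 1, with 15565791 reads, than in Sham rat 1, with 16899773 reads. RNA of whole tissue cannot tell fewer cells of a type from less RNA per cell, which holds for each value below.

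After infarction Comp, Cilp, Cilp2 and Mgp were called higher, as were 12.1% of all genes tested, and Chad, which did not pass the expression filter, was higher in every MI rat than in every Sham rat. Sox9 did not pass the test and Acan was close to 0 in all 9 rats. With DAPA given from the first day, none of the members passed the test against group MI, a count near the background, since 0.951% of all genes tested were called higher there and 1.11% lower. A gene was called when its unadjusted limma p was under 0.05 and its log2 fold change of (FPKM + 1) was over 1 in size, after a filter of at least 1 FPKM in at least 3 of the 6 rats compared.

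**Figure D1:**
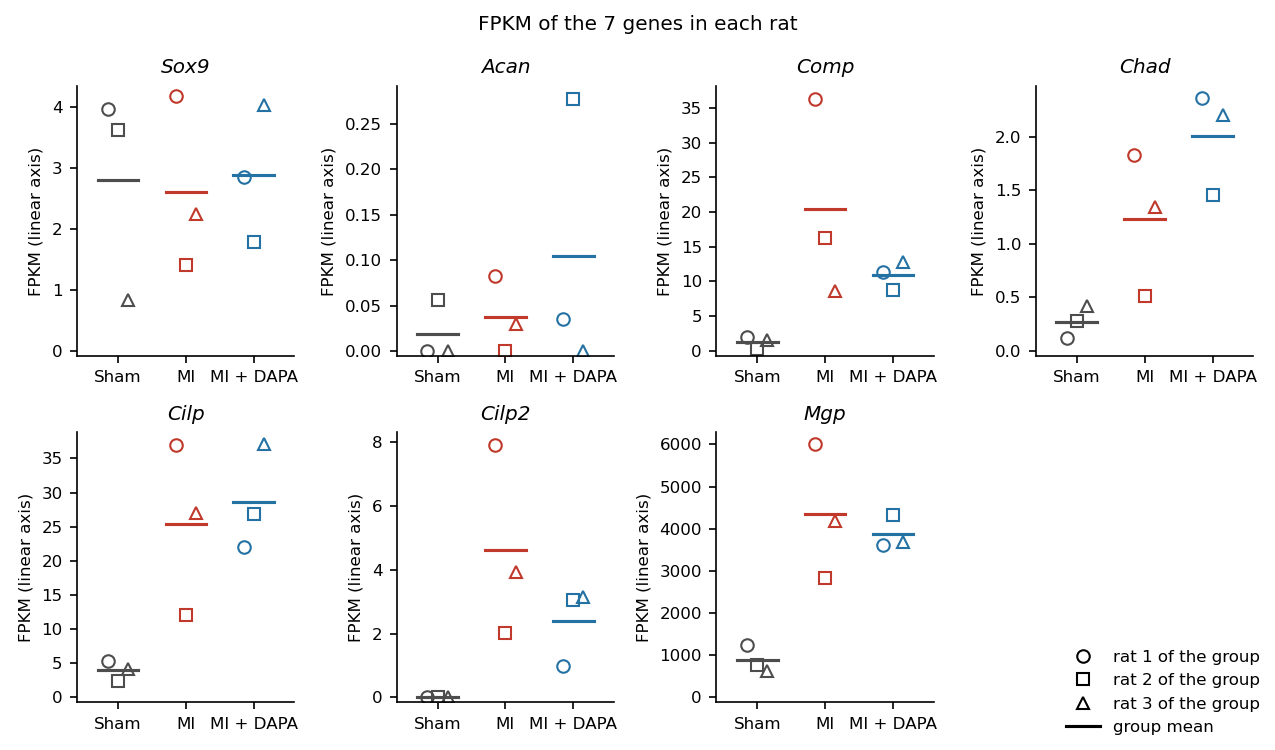
FPKM of the 7 genes in each rat on linear axes that differ between panels, with circles, squares and triangles for rats 1, 2 and 3 of a group and a line at the group mean. Comp, Chad, Cilp, Cilp2 and Mgp lie higher in all infarcted rats than in the 3 Sham rats, the MI and DAPA rats overlap in every panel, and MI rat 1 is the highest MI rat in 7 of 7 panels.

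Sox9 (ENSRNOG00000002607), the transcription factor that sets up the cartilage programme, was at 3.97, 3.62 and 0.830 FPKM in Sham rats 1, 2 and 3. It was at 4.18, 1.41 and 2.24 FPKM in the MI rats and at 2.85, 1.78 and 4.02 FPKM in the DAPA rats. The lowest of the 9 values belonged to a Sham rat and the highest to an MI rat, and the 3 groups overlapped throughout. The log2 fold change was -0.02 (SE 0.45, 95% interval -1.08 to 1.05) for MI vs. Sham, with a limma adjusted p of 0.979. It was 0.14 (SE 0.34, 95% interval -0.67 to 0.94) for DAPA vs. MI, with a limma adjusted p of 0.892. The intervals hold changes in either direction of about the size that a call requires after infarction and somewhat less with DAPA. A moderate change of Sox9 was therefore not excluded with 3 rats per group. Scaled to the same sum of FPKM per library, Sox9 would be called higher in group MI, by 1.06 on the log2 scale, but the median of all genes was then 1.301 higher. With mitochondrial genes left out of the sums, Sox9 was at -0.023 and the median of all genes at -0.021.

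Acan (ENSRNOG00000028992) encodes aggrecan, the proteoglycan that gives cartilage its resistance to compression. It was at 0, 0.0561 and 0 FPKM in the Sham rats, at 0.0820, 0 and 0.0301 in the MI rats and at 0.0349, 0.278 and 0 in the DAPA rats. The DAPA rat 2 value rested on 31 reads, and no other library held more than 11 reads of the gene. Acan was thus detected in 5 of 9 rats, did not reach the filter and had no limma test. Exact permutation tests gave a two-sided p of 0.7 in each comparison.

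Comp (ENSRNOG00000048472), the pentameric thrombospondin that bridges collagen fibrils in cartilage and tendon, had the largest log2 fold change of (FPKM + 1) among the members tested in MI vs. Sham, a scale that understates the change of Cilp2. It was at 1.97, 0.312 and 1.62 FPKM in the Sham rats, at 36.3, 16.2 and 8.58 FPKM in the MI rats and at 11.3, 8.8 and 12.9 FPKM in the DAPA rats. Every infarcted rat was above every Sham rat, and MI rat 1 was far above the other two MI rats, while the treated rats lay close together inside the MI range. The mean rose 15.7-fold, from 1.3 ± 0.874 to 20.4 ± 14.3 FPKM (SD, n = 3), and the log2 fold change was 3.08 (SE 0.52, limma adjusted p = 0.00497). With DAPA the mean was 11.0 ± 2.06 FPKM, and the log2 fold change against group MI was -0.63 (SE 0.46, 95% interval -1.72 to 0.47, limma adjusted p = 0.64).

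Without MI rat 3, the lowest of its group, Comp would be called lower with DAPA at a log2 fold change of -1.09. Without MI rat 1 the difference was the smallest of the 6 such fits, at -0.11.

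Chad (ENSRNOG00000003304) encodes chondroadherin, a leucine-rich repeat protein that binds collagen and the integrins of chondrocytes. It was at 0.118, 0.280 and 0.420 FPKM in the Sham rats, at 1.83, 0.512 and 1.35 in the MI rats and at 2.36, 1.46 and 2.20 in the DAPA rats. Both infarcted groups lay above group Sham without overlap, at low levels that rested on 3 to 9 reads per Sham library and 22 to 97 reads per infarcted one. Its level was highest in the treated rats, where 2 of the 3 values exceeded all MI values. The means of the Sham, MI and DAPA rats were 0.272 ± 0.151, 1.23 ± 0.666 and 2.01 ± 0.484 FPKM (SD, n = 3), a ratio of 4.51 for MI against Sham.

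In MI vs. Sham the gene did not reach the filter, since MI rat 2 was under 1 FPKM, and an exact permutation test gave p = 0.1, the smallest that 3 against 3 rats allow. The untested log2 fold change of (FPKM + 1) was 0.77, a scale that understates changes at so low a level. Against group Sham, Chad of the treated rats entered the test through those rats alone and was called, at a log2 fold change of 1.23 (SE 0.25, limma adjusted p = 0.0122). Against group MI its log2 fold change was 0.47 (SE 0.28, 95% interval -0.20 to 1.13, limma adjusted p = 0.598). Chad lies inside the span of Acsf2, an acyl-CoA synthetase gene, in the RefSeq annotation. The library kit named in the labels is not a directional one and how strand was treated in counting is not given, so reads of the 2 genes cannot be told apart where they overlap. Acsf2 was at 7.25 to 9.82 FPKM in the Sham rats, 8.48 to 14.5 in the MI rats and 10.7 to 13.4 in the DAPA rats.

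Cilp (ENSRNOG00000029911), the cartilage intermediate layer protein that binds TGF-beta, was at 5.30, 2.41 and 4.18 FPKM in the Sham rats. It was at 37.0, 12.1 and 27.0 FPKM in the MI rats and at 22.1, 26.8 and 37.1 FPKM in the DAPA rats. The 6 infarcted rats all lay above the Sham rats, and MI rat 2 was the lowest of those 6. The mean rose 6.40-fold, from 3.96 ± 1.46 to 25.3 ± 12.5 FPKM (SD, n = 3), with a log2 fold change of 2.32 (SE 0.41, limma adjusted p = 0.00573). With DAPA it was 28.7 ± 7.67 FPKM, and the log2 fold change against group MI was 0.27 (SE 0.40, 95% interval -0.68 to 1.22, limma adjusted p = 0.81). That small difference turned to -0.17 without MI rat 2 and to -0.08 with libraries scaled to the same sum.

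Cilp2 (ENSRNOG00000020622), the paralogue of Cilp in cartilage matrix, was the member with no reads in group Sham. It was at 0 in all 3 Sham rats, against 7.90, 2.01 and 3.92 FPKM in the MI rats and 0.995, 3.04 and 3.16 FPKM in the DAPA rats. These values rested on 145 to 623 reads per MI library and 67 to 233 reads per treated library. Set against the 0.0249 FPKM that 3 reads over the Sham group would give, the mean was at least 185-fold higher in group MI, at 4.61 ± 3.00 FPKM, and at least 96.3-fold higher in group DAPA, at 2.40 ± 1.21 FPKM (SD, n = 3). The gene passed the filter in MI vs. Sham through the MI rats alone, so that it had to differ there, and limma gave an adjusted p of 0.0044. With DAPA, rat 1 was just under 1 FPKM, for which reason DAPA vs. Sham was not tested.

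Against group MI, Cilp2 had a log2 fold change of -0.66 with DAPA (SE 0.45, 95% interval -1.74 to 0.42, limma adjusted p = 0.622). Treated rat 1 was below all MI rats and the other two treated rats were inside the MI range. Without MI rat 2 the gene would be called lower, at -1.04.

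Promoter sequences are shown for Comp, Cilp and Cilp2, which were called higher together after infarction, so that their start sites can be compared. Each runs from 250 bases before to 50 bases after the RefSeq start site on the gene's own strand, in the rat assembly GRCr8, at chr16:19089499-19089798 for Comp (minus strand), chr8:74672198-74672497 for Cilp (plus strand) and chr16:19573857-19574156 for Cilp2 (plus strand). Capitals mark CAGACA, or TGTCTG on the other strand, a SMAD-binding element that TGF-beta signalling is known to use.
Comp: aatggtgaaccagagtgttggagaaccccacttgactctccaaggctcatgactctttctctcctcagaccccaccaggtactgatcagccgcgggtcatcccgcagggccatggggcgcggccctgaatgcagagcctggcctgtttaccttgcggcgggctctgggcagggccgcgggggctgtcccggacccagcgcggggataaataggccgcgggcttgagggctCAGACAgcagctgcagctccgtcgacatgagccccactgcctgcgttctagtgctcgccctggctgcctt
Cilp: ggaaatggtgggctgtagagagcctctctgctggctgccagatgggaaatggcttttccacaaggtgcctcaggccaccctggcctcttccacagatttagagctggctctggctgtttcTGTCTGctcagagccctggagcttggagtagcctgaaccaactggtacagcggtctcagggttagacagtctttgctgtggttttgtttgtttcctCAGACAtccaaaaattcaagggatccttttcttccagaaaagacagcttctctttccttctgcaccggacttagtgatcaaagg
Cilp2: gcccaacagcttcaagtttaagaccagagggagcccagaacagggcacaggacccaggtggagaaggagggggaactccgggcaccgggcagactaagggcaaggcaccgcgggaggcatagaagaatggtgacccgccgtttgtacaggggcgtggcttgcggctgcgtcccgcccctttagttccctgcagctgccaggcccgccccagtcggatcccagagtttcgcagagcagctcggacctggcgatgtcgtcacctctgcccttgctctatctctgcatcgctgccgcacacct
The element stood once in Comp, at position -20 from the start site, and in Cilp at -34 and, on the other strand, at -130. It was absent from the windows of Cilp2, Chad and Acan. It occurred in 21.1% of all 33469 promoter windows of the same length, so 2 of the 5 member windows is a description and not a site of binding. No member window held either SOX motif searched, ACAAAG (in 18.8% of all windows) or ACAATG (13.2%), or the AP-1 motif TGANTCA (7.3%), on either strand. The TEAD motif GGAATG (14.2% of all windows) stood in Acan alone and the TATA motif TATAAA (14.2%) in Chad alone. The windows of Comp and Cilp2 had 64.7% and 63.7% GC, against a median of 51.7% over all windows, and that of Cilp had 51.0%. The windows of Sox9 and Mgp are not shown.

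Mgp (ENSRNOG00000005695) encodes matrix Gla protein, a small vitamin K-dependent protein that keeps soft tissue from calcifying and binds bone morphogenetic proteins. It was by far the most abundant member, at 1237, 775 and 628 FPKM in the Sham rats, 6015, 2837 and 4176 FPKM in the MI rats and 3613, 4335 and 3680 FPKM in the DAPA rats. The lowest infarcted rat still had more than any Sham rat, and the 3 treated rats sat within the MI range. The mean rose 4.93-fold, from 880 ± 318 to 4343 ± 1596 FPKM (SD, n = 3), with a log2 fold change of 2.29 (SE 0.37, limma adjusted p = 0.00405). With DAPA it was 3876 ± 399 FPKM, and the log2 fold change against group MI was -0.10 (SE 0.41, 95% interval -1.07 to 0.87, limma adjusted p = 0.935).

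**Figure D2:**
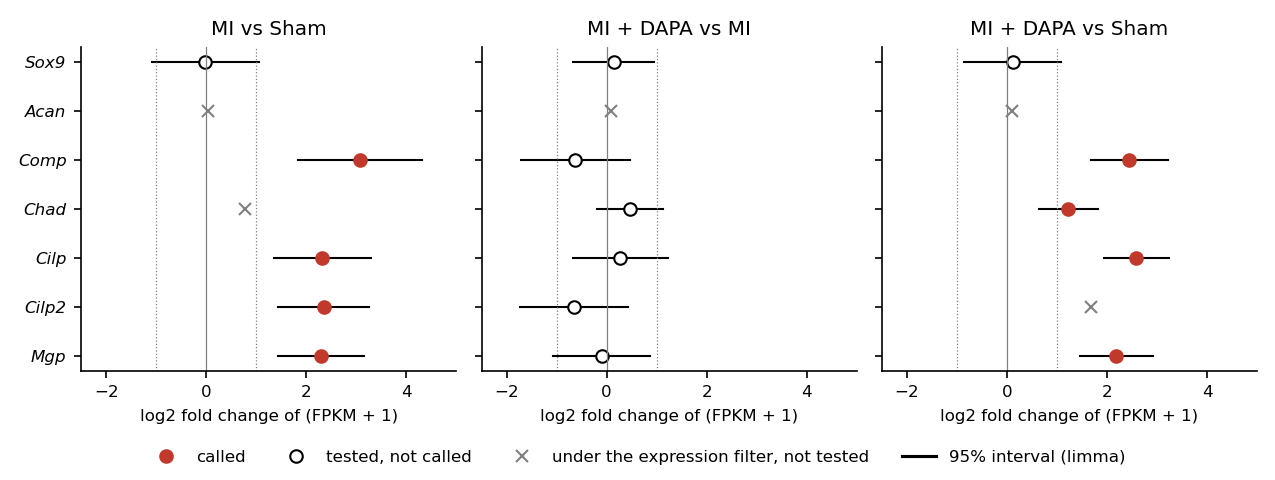
Log2 fold change of (FPKM + 1) of each member in the 3 comparisons, with 95% intervals from limma, red for called genes, open circles for genes tested and not called, and crosses for genes under the expression filter, with dotted lines at -1 and 1. Called genes appear only in the 2 comparisons with group Sham, and all 6 intervals of DAPA vs. MI include 0.

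In MI vs. Sham, 4 of the 5 members tested were called higher and none lower, with Cilp2 among them, which entered through the MI rats alone and so had to differ. Among all 13485 genes tested, 12.1% were called higher and 10.3% lower. Without overlap, 4 of the 5 members tested were higher in group MI, beside 27.1% of the genes tested. Chad, which was not tested, also lay higher without overlap. Comp, Chad, Cilp, Cilp2 and Mgp each had an exact permutation p of 0.1, the smallest possible with 3 rats per group.

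In DAPA vs. Sham, 4 of the 5 members tested were called higher and none lower, beside 9.54% and 8.16% of the 13359 genes tested. They were Comp, Cilp, Mgp and Chad, of which Chad entered through the DAPA rats alone and so had to differ. Log2 fold changes were 2.45 for Comp (SE 0.33, limma adjusted p = 0.00318), 2.59 for Cilp (SE 0.28, limma adjusted p = 0.002) and 2.19 for Mgp (SE 0.31, limma adjusted p = 0.00371). Sox9 had 0.12 (SE 0.42, limma adjusted p = 0.852). Without overlap, 4 of the 5 members tested differed, all of them higher, beside 23.2% of the genes tested. Cilp2, which was not tested, also lay higher without overlap.

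In DAPA vs. MI, limma called 0 of the 6 members tested, and 0 had an unadjusted p under 0.05, beside 8.49% of the 13251 genes tested. The share called over all genes was 0.951% higher and 1.11% lower, so that a count of 0 among 6 lies near the background. No member separated the groups without overlap, beside 6.63% of the genes tested that did so upwards and 7.16% downwards. The 3 comparisons share the rats of a group pairwise and are given side by side, not as independent evidence. The intervals of Comp, Cilp, Cilp2 and Mgp reach from -0.68 or lower to 0.42 or higher. Changes of that size in either direction were therefore not excluded with 3 rats.

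Rats of group MI differed in a like manner over the members. In group DAPA, rats 1, 2 and 3 were the lowest for 3, 3 and 1 members, and in group Sham for 1, 2 and 2. MI rat 1 was the highest of its group for 7 of 7 members and MI rat 2 the lowest for 6, with Comp as the exception. The reference genes Col1a1 and Dcn ordered these rats otherwise. Col1a1, the chain of type I collagen that makes up most of a scar, was at 1012, 1393 and 650 FPKM in MI rats 1, 2 and 3, and decorin (Dcn), a proteoglycan of fibroblasts at large, was at 838, 1098 and 763 FPKM. For both, MI rat 2 was the highest, where most members were lowest. This order was not shared by all scar genes. Ltbp2, a matrix protein that binds fibrillin, was at 146, 31.2 and 76.2 FPKM in MI rats 1, 2 and 3 and the collagen Col8a1 at 96.9, 28.0 and 39.3 FPKM, so MI rat 2 was the lowest for these as well. Both were picked after their values were seen.

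MI rat 2 also had the lowest sum of 8 cardiomyocyte markers, at 1010 FPKM against 2821 and 4997 in MI rats 1 and 3. It had the highest sum of 7 macrophage markers, at 1107 FPKM against 560 and 585. Its sum of 6 mesothelial markers was 100 FPKM against 36.3 and 10.4, carried by Msln, the surface protein mesothelin, at 78.8 FPKM against 13.3 and 3.42. The part of these in the low values of the members in this rat was not tested.

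**Figure D3:**
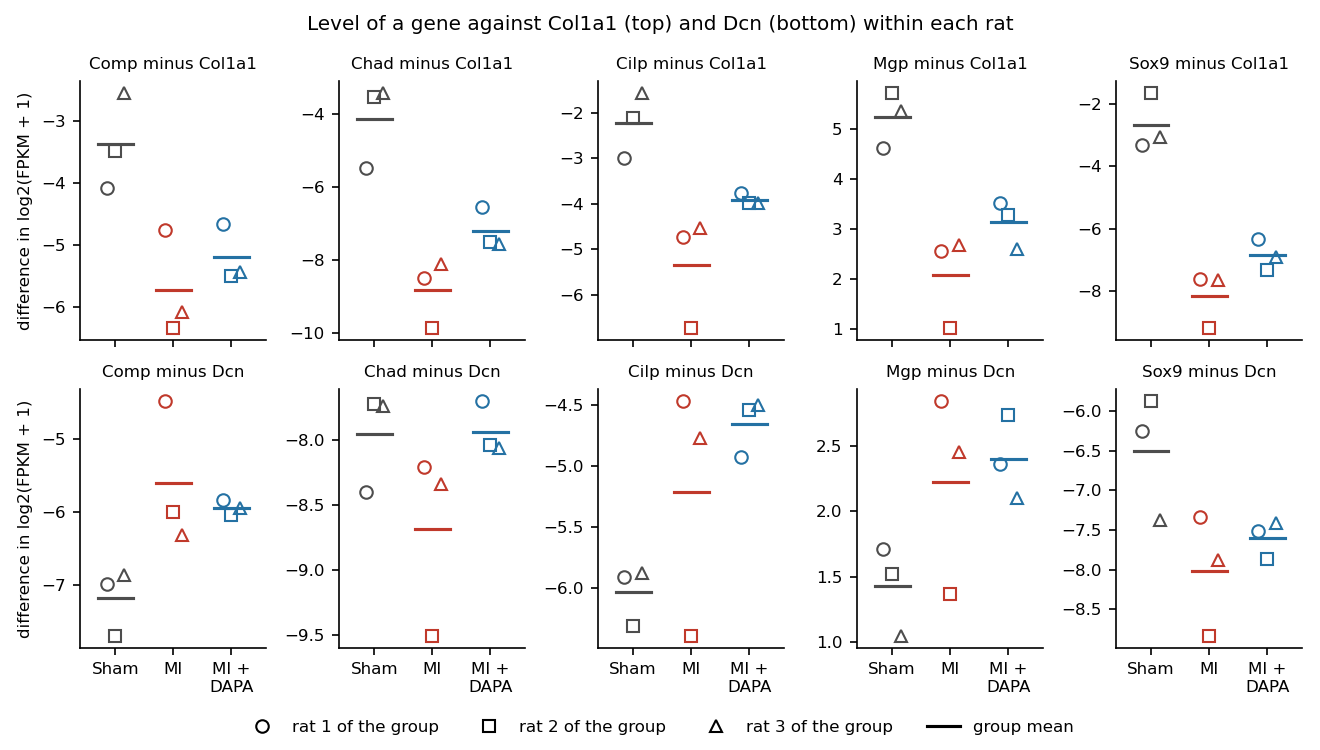
Difference in log2(FPKM + 1) between a member and Col1a1 (top) or Dcn (bottom) within each rat, with symbols for rats 1 to 3 of a group and a line at the group mean. Against Col1a1 all 5 members shown fall from Sham to MI without overlap and have a higher mean in treated than in MI rats, without overlap for Chad, Cilp and Sox9; against Dcn only Comp lies higher in MI than in Sham without overlap.

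Set against Col1a1 in the same rat on the log2(FPKM + 1) scale, every member stood lower after infarction than in group Sham. Col1a1 was at 49.0, 13.7 and 14.3 FPKM in the Sham rats and at 312, 441 and 602 FPKM in the DAPA rats. Its log2 fold change was 5.44 in MI vs. Sham (SE 0.51, limma adjusted p = 0.00103). Against group MI it was called lower with DAPA, at -1.15 (SE 0.37), but not after adjustment (limma adjusted p = 0.558). Within each rat, the log2 level of a member minus that of Col1a1 was lower in every MI rat than in every Sham rat for all 7 members, by 2.36 for Comp, whose mean difference went from -3.37 to -5.73, and by 3.12 for Cilp, from -2.22 to -5.34. For Mgp the mean difference went from 5.24 to 2.09. For Cilp2, which had no reads in group Sham, the added 1 sets the Sham level. Its own rise of at least 185-fold is therefore not seen in this difference, which gives no ratio of the genes. For Acan, near 0 in all rats, the difference holds Col1a1 almost alone.

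With DAPA the same differences stood higher than in group MI without overlap for Chad by 1.62, Cilp by 1.42, Sox9 by 1.29 and Acan by 1.24. Those of Mgp (1.05), Comp (0.53) and Cilp2 (0.49) overlapped. The difference of Acan holds Col1a1 almost alone, since Acan itself was at 0 in MI rat 2 and in DAPA rat 3. None of the members was called between these groups, while Col1a1 was 1.15 lower, so the difference holds the fall of Col1a1 as well as the member's own value. Of the 28 such differences tested, none could pass: the smallest two-sided exact permutation p is 0.1 and the smallest after Benjamini-Hochberg adjustment was 0.2.

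On the same log2(FPKM + 1) scale, Dcn rose by 1.5 (SE 0.21, limma adjusted p = 0.00274) after infarction. Against Dcn, Comp was the one member that stood higher without overlap on this scale in group MI, by 1.58 (exact permutation p = 0.1, adjusted 0.2). Cilp, Cilp2 and Mgp stood 0.82, 0.85 and 0.79 higher with overlapping rats (exact permutation p = 0.4, 0.3 and 0.3). Chad and Sox9 stood lower, at -0.73 and -1.52, also with overlapping rats (exact permutation p = 0.3 and 0.2). The mean FPKM of Chad itself rose 4.51-fold, much of which the added 1 hides at so low a level. The overlap of Cilp2 comes from the added 1, since it had 0 reads in every Sham rat and reads in every MI rat. Acan was 1.47 lower without overlap, its own level being near 0 in both groups. With DAPA only Chad lay above group MI without overlap, by 0.75 (exact permutation p = 0.1, adjusted 0.2).

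Most tested relatives of the members rose after infarction too. Of 11 listed relatives, the other thrombospondins and the proteoglycans and link proteins near aggrecan, 6 were tested in MI vs. Sham. Of these, 5 were called higher, beside 12.1% of all genes tested. The median log2 fold change of the 6 was 2.41, while the median of all genes tested was -0.005. Thbs4, a close relative of Comp, was at 12.5, 0 and 1.13 FPKM in the Sham rats and at 169, 18.1 and 77.1 FPKM in the MI rats. It had the widest change, a log2 fold change of 4.37 (SE 1.09, limma adjusted p = 0.0191), and MI rat 2 was again the lowest of its group. Versican (Vcan), the aggrecan relative of soft tissue, went from 2.30 ± 0.334 to 17.8 ± 7.40 FPKM (SD, n = 3) with a log2 fold change of 2.42 (SE 0.33, limma adjusted p = 0.00242), while Acan itself stayed near 0. Thbs1, Thbs2 and Thbs3 rose by 2.50, 2.39 and 1.42. None of the 5 relatives tested was called with DAPA.

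Transcripts of other cartilage matrix genes were low in part and higher after infarction in part. In a list of 20 other cartilage matrix genes, 13 were under 1 FPKM in every MI rat and 10 in every Sham rat. Of its collagens and matrilins, 4 stayed near 0 in all 9 rats, with a highest value of 0.0805 FPKM for type II collagen (Col2a1), 0.151 for Col9a1, 0.102 for the hypertrophic cartilage collagen Col10a1 and 0.0899 for matrilin 1 (Matn1). These 4 were picked after their values were seen, and other genes of the same list were higher after infarction.

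Of the 7 cartilage genes tested in MI vs. Sham, 4 were called higher and 1 lower, beside 12.1% and 10.3% of all genes tested. Matrilin 4 (Matn4), a perifibrillar adaptor protein, was at 1.42, 1.06 and 0 FPKM in the Sham rats and at 29.8, 10.2 and 14.7 FPKM in the MI rats, with a log2 fold change of 3.36 (SE 0.46, limma adjusted p = 0.00249). The others, named because they were called, were the Chad relative Chadl (1.32), the fibril-nucleating collagen Col11a1 (1.44) and the lubricant Prg4 (1.23, limma adjusted p = 0.0567, not significant after adjustment). Chadl and Col11a1 passed the filter through the MI rats, with 1 and 0 Sham rats at 1 FPKM or more. Col11a2 was lower, at -1.13 (SE 0.20, limma adjusted p = 0.00548), but entered through the Sham rats alone, with 0 MI rats at 1 FPKM or more, and so had to differ. Of the 6 tested in DAPA vs. MI, none was called.

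A list of 9 other transcription factors was drawn up for cartilage and bone, but not all are particular to these tissues. Of 4 tested in MI vs. Sham, Runx3 and Trps1 were called higher, both at low levels, beside 12.1% of all genes tested. Runx3 passed the filter through the MI rats, with 1 Sham rat at 1 FPKM or more. Trps1, a repressor that acts in growth plate cartilage, went from 0.329 ± 0.152 to 2.12 ± 0.688 FPKM (SD, n = 3), and entered through the MI rats alone. Runx3 went from 0.466 ± 0.521 to 3.23 ± 1.43 FPKM and was 1.47 ± 0.807 FPKM with DAPA, every treated rat being below every MI rat, with a log2 fold change of -0.78 that did not reach the fold of a call (SE 0.32, limma adjusted p = 0.558). Sox10 was not called (0.63, limma adjusted p = 0.153).

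The machinery around Mgp and Cilp moved in part. Of 10 listed genes of the vitamin K cycle, the bone morphogenetic proteins and the TGF-beta ligands, 8 were tested and 3 were called higher in MI vs. Sham, with a median log2 fold change of 0.74. Of all genes tested, 12.1% were called higher there. Vkorc1, the vitamin K reductase on which activation of Mgp depends, rose by 1.25 (SE 0.28, limma adjusted p = 0.0125), Tgfb3 by 2.32 (SE 0.24, limma adjusted p = 0.00123) and Tgfb2, named because it was called, by 1.79. Tgfb1, the ligand Cilp is best known to bind, had a log2 fold change of 0.54 (limma adjusted p = 0.0589). The same 3 genes were called higher in DAPA vs. Sham, beside 9.54% of all genes tested, and none was called against group MI.

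Of 10 genes of mineral formation, which Mgp opposes, 7 were tested and Ankh, an exporter of the mineral inhibitor pyrophosphate, was the only one called in MI vs. Sham, at 1.48 (SE 0.22, limma adjusted p = 0.00305). A count of 1 among 7 lies near the background, since 12.1% of all genes tested were called higher there. Osteopontin (Spp1) was at 45.2, 0.705 and 3.74 FPKM in the Sham rats and at 242, 9.43 and 93.1 in the MI rats, which overlapped. In DAPA vs. Sham, Spp1, Ankh and the phosphatase Alpl were called higher, at 4.28, 1.67 and 1.20, beside 9.54% of all genes tested. None of the 7 was called between group DAPA and group MI.

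Of the enzymes that cut these matrix proteins, 2 were called in MI vs. Sham, where 12.1% of all genes tested were called higher. Of 8 tested of 9 listed, Htra1, a serine protease of cartilage, was called higher in MI vs. Sham at 1.25 (SE 0.29, limma adjusted p = 0.0142) and Adamts15, an aggrecan- and versican-cutting protease, at 2.02 (SE 0.41, limma adjusted p = 0.00932). With DAPA Htra1 was at -0.72 (SE 0.30) and Adamts15 at -1.21 (SE 0.61), each with a limma adjusted p of 0.558, and none of the 8 was called.

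**Figure D4:**
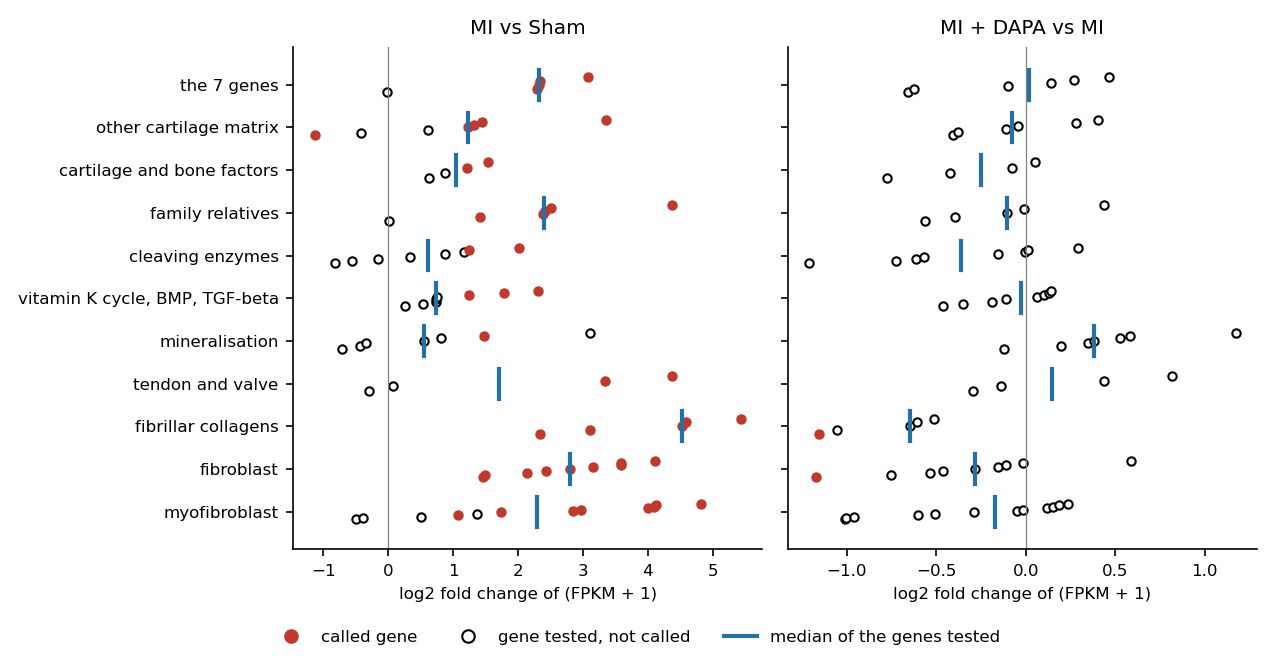
Log2 fold change of (FPKM + 1) of every tested gene of 11 lists in MI vs. Sham (left) and DAPA vs. MI (right), filled red where called, with a bar at the median of each list. After infarction the list medians run from 0.56 for mineralisation to 4.53 for fibrillar collagens, with the 7 genes at 2.32, and with DAPA only Col1a1 and the fibroblast gene Scara5 are called, both lower.

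Markers of cell types stood beside the members as follows. All 9 fibroblast markers and all 5 fibrillar collagens were called higher in MI vs. Sham, with median log2 fold changes of 2.81 and 4.53. Of all genes tested there, 12.1% were called higher and 10.3% lower. Of 12 myofibroblast genes tested, 8 were called higher, among them periostin (Postn) at 4.82 (SE 0.92, limma adjusted p = 0.00744), but not the contractile genes Acta2 (-0.39) and Tagln (-0.50), whose rats overlapped. All 7 macrophage markers were called higher, and 4 of 5 endothelial markers and 3 of 8 cardiomyocyte markers lower, 2 of those 3 also after adjustment. The summed fibroblast level was 723 to 1026 FPKM in the Sham rats, 2962 to 3762 in the MI rats and 2805 to 4391 in the DAPA rats. Comp, Cilp, Cilp2 and Mgp moved in the same direction as these sums, and the part of fibroblast number in their rise was not tested.

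The sums of the cardiomyocyte markers were 5210 to 7745 FPKM in the Sham rats, 1010 to 4997 in the MI rats and 3965 to 8735 in the DAPA rats, where Myl2 and Tnni3 were called higher than in group MI, though not after adjustment (limma adjusted p = 0.558 for each). Macrophage sums were 62.6 to 152, 560 to 1107 and 307 to 654 FPKM in the same order. The part of this shift in the values of the members was not tested.

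Comp, Chad and Mgp are also made by tendon and valve cells. Of 8 genes of those tissues, Kera and Omd, the proteoglycans keratocan and osteomodulin, had 0 reads in all 9 rats. Of the 4 tested, Prelp, a heparan-binding anchor of basement membranes, rose by 3.34 (SE 0.46, limma adjusted p = 0.00253) and Thbs4 as given above, while fibromodulin (Fmod) had a log2 fold change of -0.30 (limma adjusted p = 0.674). In MI vs. Sham, smooth muscle markers gave 1 called higher, Rgs5, and 1 lower, Smtn, of 6, beside 12.1% and 10.3% of all genes tested. The adipocyte markers summed to at most 0.232 FPKM in the Sham rats, 1.01 in the MI rats and 9.37 in the DAPA rats, and none was tested.

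Across the 9 rats the rising members ran close together. The Pearson correlation of log2(FPKM + 1) was 0.96 for Cilp and Mgp, 0.92 for Cilp2 and Mgp, 0.91 for Comp and Mgp and 0.73 to 0.90 for Chad with Comp, Cilp, Cilp2 and Mgp. Sox9 had 0.12 to 0.26 with the others. These 9 points hold 3 groups that differ in level, so much of the value comes from the step between group Sham and the infarcted rats. Taken as deviations from the group means, Cilp and Cilp2 had 0.79, Cilp and Mgp 0.72, Comp and Chad 0.30, and Sox9 0.25 to 0.70 with the others, the highest being with Mgp.

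Of 12989 named genes that passed the filter over all 9 rats, those with the pattern most like a member were ranked by the same measure as a description. For Comp they were Efs, a docking protein of Src kinases (0.990), the sialyltransferase St3gal2 (0.989) and Tspan17 (0.985). For Chad they were the nucleoside transporter Slc29a1 (0.972), the cardiac transcription factor Gata4 (0.966) and Inhba, a subunit of activin (0.960), which like Chad had the highest mean in the treated rats, at 0.261, 1.11 and 1.87 FPKM in the order Sham, MI and DAPA. For Cilp they were Fhl4 (0.988), Gask1b (0.987) and Kazald1 (0.987). For Cilp2 they were Fam149a (0.976), the protease Adamts17 (0.970) and the elastic fibre protein Fbln5 (0.969). For Mgp they were Rasl11b (0.989), Dcun1d3 (0.986) and the matricellular protein Smoc2 (0.985), at 1.18, 9.27 and 8.36 FPKM in the same order. Sox9 had no gene over 0.905 (Ppidl1), and Acan was too low to be ranked.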

How the data were processed

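Poly-A libraries of 9 rat hearts were sequenced as paired ends. The deposited values are FPKM, made by the authors, with 1 column per rat. The submitters' processing notes name HISAT2 2.0.5, StringTie 1.3.3b, featureCounts 1.5.0-p3 and DESeq2, without their order. The genome build is not given in the sources used here. No column was left unused (0), and columns were matched to rats by name.

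The members and all gene lists were chosen with earlier results of these data known. Genes in the text are the 7 members, Col1a1 and Dcn, the relatives, at most the 3 most abundant genes of each other list, and the 3 named genes most like each member. Others are named because they were called, had 0 reads in all rats (Kera and Omd), overlap a member (Acsf2) or are said to be picked afterwards.

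Since FPKM are not counts, limma 3.58.1 in R 4.3.3 replaced the count-based test of the study. Each fit held the 6 rats of 2 groups on log2(FPKM + 1), with a trended prior variance, and genes with at least 1 FPKM in at least 3 rats. Fold changes on this scale understate changes of low genes. Calls follow the study's rule (p under 0.05, taken as unadjusted, and a log2 fold change past 1 in either direction), and adjustment was by Benjamini-Hochberg over all genes tested. The fit was tested on simulated data. Whole reads were recovered from the steps of the low FPKM values for 18896 of 18896 genes with values in at least 4 libraries (tolerance 0.02 of a read) and served for depth and floors only. The floor was 3 reads and covers counting error only, since reads carried no molecular identifiers, while the intervals printed are those of limma and reflect the spread between rats. For single values, two-sided exact permutation tests were run. Promoters and motifs come from RefSeq (GRCr8), in which 5 of 7 members were matched. Python 3.11.15 with pandas 2.3.3, scipy 1.17.1 and matplotlib 3.10.9 was used. Alternatives were another pseudocount, no filter, 9 rats in 1 fit, a replicate block, 3 scalings, other call rules and leaving out each rat.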

Additional observations from a re-analysis of the deposited data

How the results depend on the processing

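The members called higher were 4 in MI vs. Sham (3 to 6 over the alternatives) and 4 in DAPA vs. Sham (3 to 5). In DAPA vs. MI, 0 were called higher throughout, and 0 were called lower except without replicate 2 or replicate 3 of group MI, which gave 1 each. Leaving out each rat gave 0 to 1 called lower there, and 3 to 4 called higher in each comparison with group Sham, where Cilp2 (without an MI rat) or Chad (without a DAPA rat) no longer reached the filter. Sox9 changed sign in MI vs. Sham, to 0.034 with a pseudocount of 0.1, 1.06 with libraries scaled to the same sum and at most 0.24 with a rat left out (range -0.48 to 0.24). In DAPA vs. MI it changed to -0.12 with equal sums, and leaving out a rat gave -0.12 to 0.44. In DAPA vs. Sham leaving out a rat gave -0.34 to 0.38. Against group MI, Cilp turned to -0.081 with equal sums and lay between -0.17 and 0.60 with a rat left out, and Mgp between -0.38 and 0.17. The causes were not tested. Equal sums moved the median of all genes by 1.301 in MI vs. Sham (9214 called higher and 198 lower, against 1634 and 1390), by -0.341 in DAPA vs. MI (54 and 557, against 126 and 147) and by 1.003 in DAPA vs. Sham (6683 and 154, against 1274 and 1090). With mitochondrial genes left out of the sums, the medians were -0.021, -0.078 and -0.069 in the same order. The number of genes called in DAPA vs. MI depended on single rats, from 38 to 408 higher. Deviations of same-numbered rats from their group means had correlations of -0.321 to 0.202. With 3 rats per group this cannot settle whether the numbers pair them. With the replicate block, 4, 0 and 4 members were called higher in the 3 comparisons and 0 lower, and over all genes DAPA vs. MI gave 71 higher and 146 lower. Low depth outside the mitochondrial genome limits Chad and Acan in group Sham, and 3 rats per group limit every interval against group MI.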
